A study of Mus musculus with 6 samples.

Results

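The insulin-like growth factor (IGF) genes were examined in coronary endothelial cells (ECs) of mouse embryos with and without *Wt1*, the gene of a zinc finger transcription factor that is active in the epicardium and in the forming coronary vessels. The 10 genes described here were chosen by their symbols out of 55416 genes counted. They are the ligands *Igf1* and *Igf2*, the receptors *Igf1r* and *Igf2r*, and the genes of the binding proteins *Igfbp2*, *Igfbp3*, *Igfbp4*, *Igfbp5*, *Igfbp6* and *Igfbp7*. RNA-Seq was carried out on 3 libraries per genotype. ControlΔEC embryos carried Pdgfb(CreERT2/+), Wt1(+/+) and R26(mTmG/+), and Wt1KOΔEC embryos carried Pdgfb(CreERT2/+), Wt1(loxP/loxP) and R26(mTmG/+). Both genotypes therefore carried the inducible Cre and the membrane GFP reporter, and in both the dams received tamoxifen (75 mg/kg), first at E11.5 and last at E13.5. Ventricles were digested at E15.5 (embryonic day) and mGFP+ cells were sorted, so the cells analysed are those in which the Pdgfb-driven Cre had recombined the reporter. The sources used here do not state how many embryos went into a library, and the p-values measure the spread between these libraries.

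IGF1 and IGF2 signal through the tyrosine kinase receptor IGF1R, while IGF2R binds IGF2 and carries it to the lysosome without a kinase of its own. In extracellular fluid most IGF is held by the binding proteins, which lengthen its half-life and control its access to the receptor. IGF2 is abundant in the fetus and is made by the epicardium and the endocardium of the embryonic heart, where it is known as a mitogen for the compact myocardium. *Igf2* and *Igf2r* are imprinted, with *Igf2* expressed mainly from the paternal and *Igf2r* mainly from the maternal allele in most fetal tissues.

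The libraries held 27211308 to 44779020 expected counts in ControlΔEC and 26037324 to 42704156 in Wt1KOΔEC, and 3 counts, taken as the floor of detection, corresponded to between 0.0608 and 0.119 CPM (counts scaled to the library total with TMM factors). This floor allows for counting error alone, and reads copied by PCR do not each stand for a molecule. *Wt1*, the targeted gene, was at 145, 110 and 149 CPM in ControlΔEC replicates 1, 2 and 3 and at 14.0, 18.4 and 21.3 CPM in Wt1KOΔEC replicates 1, 2 and 3. The EC markers *Pecam1*, *Cdh5*, *Cldn5*, *Kdr*, *Tek* and *Erg* summed to 3673 to 4743 CPM in ControlΔEC and 3699 to 4255 CPM in Wt1KOΔEC, and these ranges overlapped. *Kdr* was lower without overlap, at 1178, 1029 and 1202 CPM in ControlΔEC and 942, 991 and 860 CPM in Wt1KOΔEC. The other EC markers overlapped between genotypes. The ribosomal RNA gene *Rn18s* took 13.2 to 15.3% of counts in ControlΔEC and 21.1 to 26.5% in Wt1KOΔEC, and mitochondrially encoded genes took 5.21 to 6.61% and 1.68 to 4.57%. A fit without these genes, chosen after the data had been seen, removes their rows alone. It cannot show what the difference in content does to other genes. In that fit no IGF family gene changed its direction or its call. The part of these differences in the results was not tested. Library identifiers form a separate series for each genotype, so a batch that follows genotype cannot be told apart from it. In sorted bulk RNA, fewer cells of a type and less RNA per cell cannot be told apart.

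The regions before the start sites are shown for 4 genes, 3 binding protein genes whose libraries did not overlap between genotypes (*Igfbp3*, *Igfbp5* and *Igfbp7*) and *Igf2r*, whose promoter held the one match to an EGR and WT1 type motif. Each line gives the 250 bases before the start site, 5′ to 3′ on the strand of the gene, from RefSeq on GRCm38.p6, a build that differs from the one used for the gene positions further on. Capitals mark matches on either strand to GCGGGGGCG, a GC-rich motif of the kind that WT1 and the EGR factors bind, or to the GC box GGGCGG. *Igfbp3* lies on the minus strand at chr11:7213924-7214173, *Igfbp5* on the minus strand at chr1:72874866-72875115, *Igfbp7* on the minus strand at chr5:77408046-77408295 and *Igf2r* on the minus strand at chr17:12769707-12769956.
Igfbp3: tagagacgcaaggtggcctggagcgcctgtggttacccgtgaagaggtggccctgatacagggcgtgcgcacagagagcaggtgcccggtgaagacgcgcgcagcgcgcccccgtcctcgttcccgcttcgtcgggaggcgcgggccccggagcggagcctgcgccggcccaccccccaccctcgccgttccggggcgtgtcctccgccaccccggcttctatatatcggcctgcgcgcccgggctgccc
Igfbp5: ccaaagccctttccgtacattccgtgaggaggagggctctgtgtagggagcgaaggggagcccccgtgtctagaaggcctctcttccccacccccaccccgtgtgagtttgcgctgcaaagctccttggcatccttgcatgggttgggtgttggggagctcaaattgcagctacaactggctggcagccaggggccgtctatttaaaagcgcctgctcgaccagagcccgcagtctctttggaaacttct
Igfbp7: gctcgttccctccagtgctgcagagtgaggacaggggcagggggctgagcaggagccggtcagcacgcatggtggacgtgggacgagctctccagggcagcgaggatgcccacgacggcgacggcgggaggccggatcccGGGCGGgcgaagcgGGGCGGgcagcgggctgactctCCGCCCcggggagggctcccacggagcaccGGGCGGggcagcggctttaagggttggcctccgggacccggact
Igf2r: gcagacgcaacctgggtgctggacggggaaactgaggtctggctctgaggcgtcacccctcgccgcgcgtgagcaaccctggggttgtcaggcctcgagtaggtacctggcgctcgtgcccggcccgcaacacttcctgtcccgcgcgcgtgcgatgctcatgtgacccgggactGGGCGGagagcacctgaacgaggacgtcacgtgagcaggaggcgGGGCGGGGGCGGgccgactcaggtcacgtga

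All 10 genes had at least 1 promoter in the RefSeq table, 14 promoters in all, each searched over 300 bases from 250 before to 50 after the start. GCGGGGGCG was present in 1 of the 14 promoters, that of *Igf2r*, where it began 29 bases before the start site and overlapped GC boxes. The same motif was held by 955 of 32851 promoters, or 2.91%. A second motif, GCGTGGG, was in none of the 14 promoters and in 1655 of the 32851, or 5.04%. The GC box, a motif added after the data had been seen, was in 6 of the 14 promoters, belonging to *Igf2*, *Igf1r*, *Igf2r*, *Igfbp2* and *Igfbp7*, and in 11714 or 35.7% of all promoters. *Igfbp7* held 4 GC boxes in the bases shown, whereas *Igfbp3* and *Igfbp5* held 0. GC content over the 300 bases was 73.3% for *Igfbp7*, 71.7% for *Igfbp3*, 70.7% for *Igf2r* and 56.3% for *Igfbp5*, beside a median of 52.7% over all promoters. A match is a description of these letters, and the absence of a match says nothing about binding by WT1.

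Levels were first compared between the genes as CPM per kb of exonic length, averaged over the 6 libraries. *Igfbp3* (462 ± 180, SD, n = 6) and *Igf2* (452 ± 131) were the highest, and their libraries overlapped. The mean of *Igf2* was above that of *Igfbp3* in ControlΔEC (348 ± 48.5 against 306 ± 89.4, SD, n = 3) and below it in Wt1KOΔEC (555 ± 92.0 against 618 ± 17.8), with overlap within each genotype. *Igfbp4* followed at 248 ± 42.1 and lay below *Igf2* in every library. *Igfbp5* (33.4 ± 13.7) and *Igf2r* (32.3 ± 3.65) had nearly equal means, but their order differed by genotype. *Igfbp5* was below *Igf2r* in the 3 ControlΔEC libraries, at 17.8, 24.4 and 22.9 against 30.0, 31.4 and 29.7 CPM per kb. In Wt1KOΔEC it was above *Igf2r*, at 43.4, 52.5 and 39.5 against 30.0, 39.1 and 33.6 CPM per kb. *Igfbp7* (6.86 ± 6.76), *Igf1* (6.76 ± 0.67) and *Igfbp2* (6.02 ± 2.76) came next and overlapped each other over the 6 libraries, although *Igfbp7* lay below *Igf1* in each Wt1KOΔEC library. *Igf1r* was at 1.49 ± 0.37 and *Igfbp6* at 0.55 ± 0.59 CPM per kb, again with overlap. In these cells *Igf2* mRNA thus exceeded *Igf1* mRNA per kb by 54.7 ± 11.6-fold (SD, n = 3) in ControlΔEC and by 79.1 ± 17.1-fold in Wt1KOΔEC, and *Igf2r* exceeded *Igf1r* by 20.5 ± 7.10-fold and 24.8 ± 2.23-fold. The libraries of the genotypes overlapped for both ratios. Without division by length *Igf2* was the highest of the 10 genes, and it ranked 14 by mean CPM among all 55416 genes counted.

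**Figure D1:**
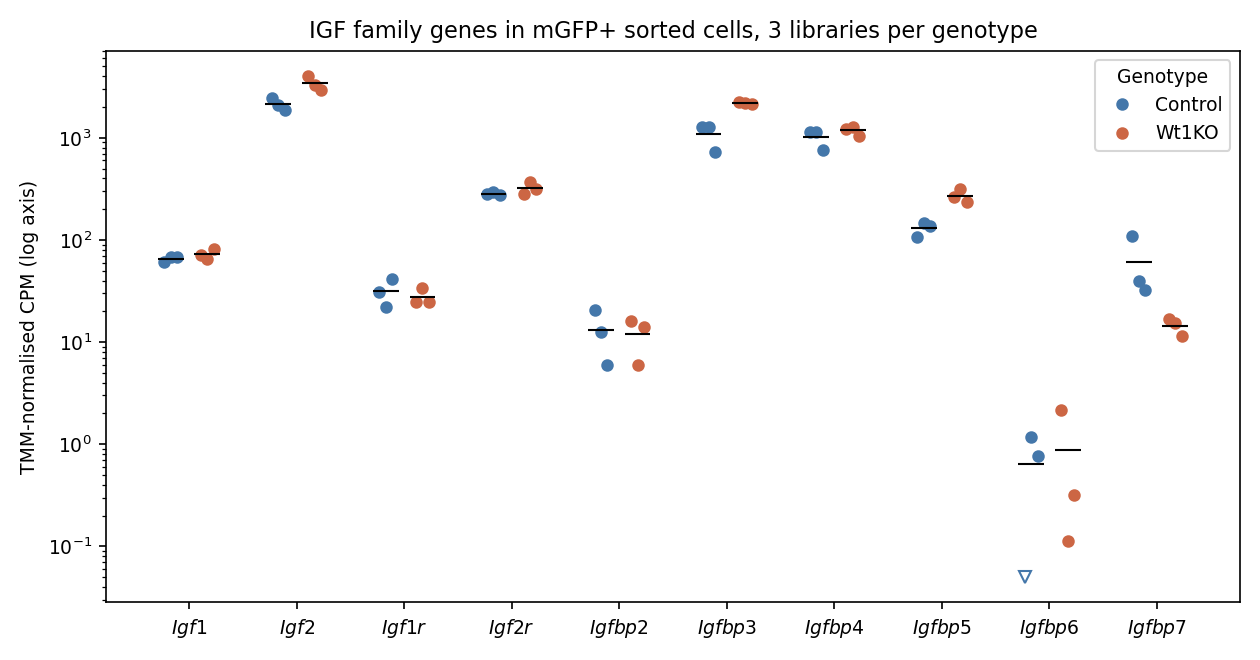
TMM-normalised CPM on a log axis for the 10 IGF family genes, with a point per library, ControlΔEC (Control) in blue, Wt1KOΔEC (Wt1KO) in orange and a black line at the mean of 3. The open triangle marks a library with 0 counts, drawn below the scale of the others. *Igf2*, *Igfbp3* and *Igfbp5* lie higher in all Wt1KOΔEC libraries and *Igfbp7* lies lower.

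*Igf2*, *Igfbp3* and *Igfbp5* were higher in each Wt1KOΔEC library than in any ControlΔEC library, and *Igfbp7* was lower. For 4 of the 10 genes, therefore, the genotypes did not overlap, where 19.3% of the 16296 genes tested showed no overlap. All 10 genes passed the filter of at least 10 counts in at least 2 libraries. With edgeR's quasi-likelihood test and Benjamini-Hochberg adjustment over all genes tested, 0 of the 10 were differentially expressed genes (DEGs, adjusted p under 0.05 and absolute log2 fold change above 0.58), and only 0.0736% of all genes tested were. The same 4 genes had an unadjusted edgeR p under 0.05, beside 13.1% of all genes. DESeq2, the tool named in the methods of the study, called these 4 genes as DEGs, 3 higher and 1 lower, and called 3.68% of all genes tested. Each log2 fold change given below is Wt1KOΔEC over ControlΔEC with its SE, and the median over all genes tested was -0.03. An exact permutation test of 3 libraries against 3 cannot go below p = 0.1.

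*Igf2*, the main fetal IGF ligand, measured 2473, 2081 and 1886 CPM in ControlΔEC replicates 1, 2 and 3 and 4042, 3282 and 2933 CPM in Wt1KOΔEC replicates 1, 2 and 3. The highest ControlΔEC library thus lay below the lowest Wt1KOΔEC library. The means were 2147 ± 299 and 3419 ± 567 CPM (SD, n = 3), a log2 fold change of 0.67 ± 0.17 or 1.59-fold (edgeR, adjusted p = 0.19; DESeq2, adjusted p = 0.00462; two-sided exact permutation p = 0.1). *Igf2* lies on chromosome 7 at 142204503 to 142220694 on the minus strand (GRCm39, GENCODE vM39), where the antisense genes *Igf2os* and *Gm33148* and the same-strand gene model *Gm49394* overlap it. The library preparation does not keep the strand, so reads of overlapping genes cannot be told apart, but *Igf2os* was at 0.910 to 2.48 CPM, *Gm33148* at 0 to 4.50 CPM and *Gm49394* at 0.304 to 1.92 CPM over the 6 libraries.

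*H19*, the maternally expressed non-coding RNA that shares the imprinted locus and its enhancers with *Igf2*, was at 1252, 1443 and 1046 CPM in ControlΔEC and 2171, 1995 and 1639 CPM in Wt1KOΔEC. These libraries did not overlap either, and the log2 fold change was 0.63 ± 0.17 (edgeR, adjusted p = 0.209; DESeq2, adjusted p = 0.0105). The ratio of *Igf2* to *H19* counts was 1.97, 1.44 and 1.80 in ControlΔEC and 1.86, 1.64 and 1.79 in Wt1KOΔEC. The Wt1KOΔEC ratios fell within the ControlΔEC range, and the difference was smaller than the spread between libraries (exact permutation p = 0.9).

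*Igf1*, the other ligand, was at 60.6, 68.2 and 68.6 CPM in ControlΔEC and 71.7, 65.3 and 80.8 CPM in Wt1KOΔEC. The genotypes overlapped, and the log2 fold change was 0.14 ± 0.16 with a 95% interval from -0.21 to 0.50 (edgeR, adjusted p = 0.796). *Igf1* lies on chromosome 10 at 87693642 to 87772904 on the plus strand. The summed level of both ligands was 355 ± 48.1 CPM per kb in ControlΔEC and 562 ± 91.7 CPM per kb in Wt1KOΔEC, without overlap, and *Igf2* made up almost all of it.

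Neither receptor gene differed beyond the spread between libraries. *Igf1r*, which encodes the signalling receptor, was at 30.6, 22.1 and 41.7 CPM in ControlΔEC and 24.5, 33.8 and 24.4 CPM in Wt1KOΔEC. Its log2 fold change was -0.19 ± 0.27 with a 95% interval from -0.81 to 0.43 (edgeR, adjusted p = 0.857), so a change past the fold limit in the lower direction was not excluded by these libraries. The scavenging receptor gene *Igf2r* was at 281, 294 and 278 CPM in ControlΔEC and 281, 367 and 315 CPM in Wt1KOΔEC. Its interval was narrower, from -0.17 to 0.52 around a log2 fold change of 0.17 ± 0.15 (edgeR, adjusted p = 0.72), and did not reach the fold limit in either direction. *Igf1r* lies on chromosome 7 at 67601518 to 67883416 on the plus strand and *Igf2r* on chromosome 17 at 12901293 to 12988614 on the minus strand. The imprinted antisense RNA *Airn*, which silences paternal *Igf2r* and starts within it, was at 18.98, 63.4 and 48.2 CPM in ControlΔEC and 45.5, 41.5 and 44.8 CPM in Wt1KOΔEC. Its reads and those of *Igf2r* cannot be told apart where the genes overlap.

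**Figure D2:**
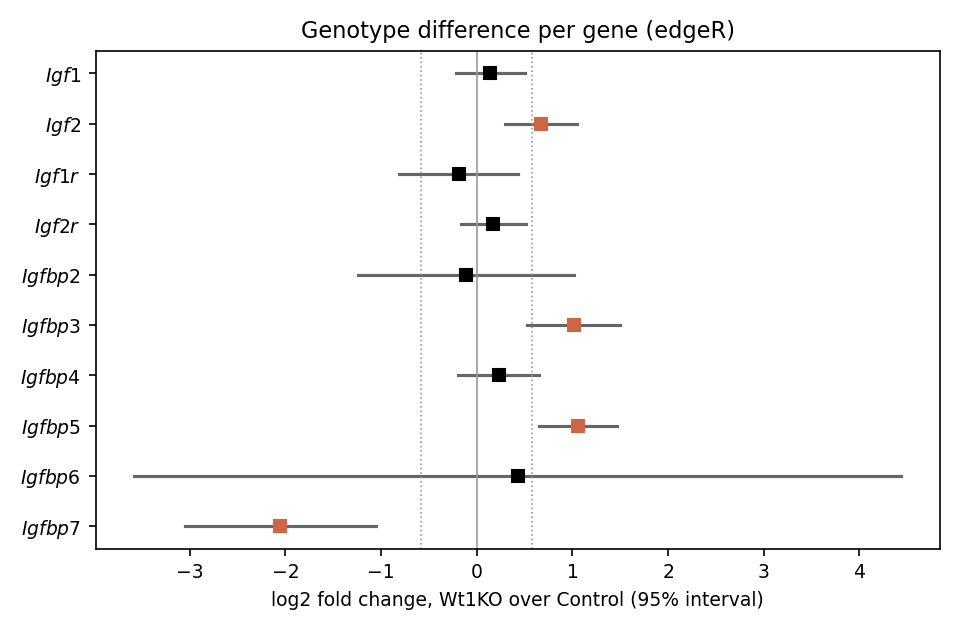
The log2 fold change (squares) and its 95% interval (lines) from edgeR for each IGF family gene, Wt1KOΔEC over ControlΔEC, with dotted lines at the fold change limit of 0.58 in either direction. Orange squares are genes whose libraries did not overlap between genotypes, and the interval of *Igfbp6* is the widest of the 10 genes.

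*Igfbp3*, which encodes the main IGF carrier of serum and is also made by ECs, was at 1277, 1274 and 724 CPM in ControlΔEC replicates 1, 2 and 3 and at 2264, 2208 and 2137 CPM in Wt1KOΔEC replicates 1, 2 and 3. The Wt1KOΔEC libraries lay close together, while ControlΔEC replicate 3 was well below the other two. The means were 1092 ± 319 and 2203 ± 63.5 CPM (SD, n = 3), a log2 fold change of 1.01 ± 0.21 or 2.02-fold (edgeR, adjusted p = 0.134; DESeq2, adjusted p = 1.95e-04; exact permutation p = 0.1). Without ControlΔEC replicate 3 the log2 fold change was 0.79. *Igfbp3* lies on chromosome 11 at 7156086 to 7164179 on the minus strand. *Igfbp1*, the next binding protein gene beside it, was at 0 to 0.702 CPM in the 6 libraries.

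*Igfbp5*, whose protein binds the extracellular matrix as well as IGFs, was at 107, 146 and 138 CPM in ControlΔEC and 261, 315 and 237 CPM in Wt1KOΔEC. Its lowest Wt1KOΔEC library was well above the highest ControlΔEC library. The log2 fold change was 1.06 ± 0.18 or 2.08-fold (edgeR, adjusted p = 0.108; DESeq2, adjusted p = 6.19e-06; exact permutation p = 0.1). Its 95% interval, from 0.65 to 1.47, lay above the fold limit but is not adjusted for the number of genes tested. *Igfbp5* was not a DEG with edgeR. *Igfbp2* lies beside it on chromosome 1 in the opposite orientation, at 72863606 to 72891634 on the plus strand, with *Igfbp5* at 72897091 to 72914043 on the minus strand. *Igfbp2*, another IGF2 carrier of the fetus, was at 20.6, 12.6 and 5.90 CPM in ControlΔEC and 15.9, 6.01 and 14.2 CPM in Wt1KOΔEC. The replicates of *Igfbp2* spread widely within each genotype and overlapped, and its log2 fold change of -0.11 ± 0.50 had an interval from -1.25 to 1.02 (edgeR, adjusted p = 0.964).

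Markers of other cells differed between genotypes together with these higher genes. The 7 fibroblast markers, of which *Col3a1*, *Postn* and *Col1a1* were the most abundant, summed to 585 to 869 CPM in ControlΔEC and 1158 to 1368 CPM in Wt1KOΔEC without overlap. *Col1a1* was a DEG (log2 fold change 1.34 ± 0.17, edgeR adjusted p = 0.0441), *Dcn*, *Col3a1* and *Pdgfra* also had no overlap, and *Lum*, *Postn* (log2 fold change -0.16 ± 0.25) and *Tcf21* overlapped. *Lum*, for instance, was at 14.1 to 17.9 CPM in ControlΔEC and 12.9 to 21.4 CPM in Wt1KOΔEC. The study itself counts *Col1a1*, *Col3a1* and *Dcn* among venous markers that were higher, so their levels are not specific to fibroblasts. The 7 epicardial markers summed to 12.3 to 16.7 CPM in ControlΔEC and 17.2 to 50.1 CPM in Wt1KOΔEC, and the 3 lymphatic markers to 23.4 to 43.9 and 57.7 to 80.0 CPM. Of the epicardial markers *Upk3b*, *Upk1b*, *Tbx18* and *Msln* had no overlap and were higher, whereas *Aldh1a2*, *Lrrn4* and *Muc16* overlapped, with log2 fold changes of -0.05, 2.11 and -2.19. *Msln* alone was 18.9 of the 50.1 CPM in Wt1KOΔEC replicate 1. Of the lymphatic markers *Prox1* had no overlap, while *Lyve1* and *Pdpn* overlapped. The summed macrophage (191 to 606 against 144 to 196 CPM), erythroid, cardiomyocyte and endocardial markers overlapped between genotypes, but single macrophage and erythroid markers did not. All 5 macrophage markers had negative log2 fold changes, and *Csf1r* (-1.40 ± 0.39) and *Adgre1* (-1.48 ± 0.40) had no overlap and were called lower by DESeq2. Of the erythroid markers *Hbb-y* (2.57 ± 0.54) was higher and *Alas2* (-1.15 ± 0.35) lower without overlap, and DESeq2 called 3 of the 5. No marker of these lists was at 0 in all libraries. Their part in the values of *Igf2*, *Igfbp3* and *Igfbp5* was not tested.

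*Igfbp7* encodes a matrix protein of the vessel wall that binds IGFs with low affinity. It was at 109, 39.3 and 32.3 CPM in ControlΔEC replicates 1, 2 and 3 and at 16.8, 15.3 and 11.48 CPM in Wt1KOΔEC replicates 1, 2 and 3. ControlΔEC replicate 1 was far above the other libraries, and the Wt1KOΔEC libraries were all below the lowest ControlΔEC library. The means of 60.3 ± 42.5 and 14.5 ± 2.73 CPM (SD, n = 3) gave a log2 fold change of -2.05 ± 0.44, or 4.15-fold lower in Wt1KOΔEC (edgeR, adjusted p = 0.14; DESeq2, adjusted p = 1.89e-04; exact permutation p = 0.1). Without ControlΔEC replicate 1 the log2 fold change was -1.30. The study itself names *Igfbp7* and *Igfbp3* among its changed genes, so their direction here is not independent evidence. *Igfbp7* lies on chromosome 5 at 77493130 to 77555931 on the minus strand, and its 3′ end overlaps the antisense gene *Polr2b*, a subunit of RNA polymerase II. *Polr2b* was at 69.9 to 91.7 CPM in ControlΔEC and 68.6 to 97.9 CPM in Wt1KOΔEC, with overlap, and a log2 fold change of 0.05.

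The summed level of the 7 mural cell markers was lower in Wt1KOΔEC as well. Their sum was 319, 146 and 314 CPM in ControlΔEC replicates 1, 2 and 3 and 108, 107 and 109 CPM in Wt1KOΔEC replicates 1, 2 and 3, without overlap. *Rgs5*, *Pdgfrb*, *Cspg4* and *Kcnj8* were lower in each Wt1KOΔEC library, and *Myh11* was at 0 counts in 4 of the 6 libraries. *Notch3* and *Tagln* overlapped, with log2 fold changes of -0.26 and 0.92, so *Tagln* pointed the other way. *Rgs5*, the most abundant mural marker in ControlΔEC, was at 165, 26.8 and 164 CPM there, a large part of the sum in replicates 1 and 3. ControlΔEC replicate 3 was thus high in *Rgs5* and had the lowest ControlΔEC level of *Igfbp7*, while replicate 1 was high in both. With edgeR 0 of the 7 mural markers were DEGs, and DESeq2 called 3 of them lower. The study itself places *Rgs5* and *Kcnj8* among coronary artery markers, so their lower levels are not specific to mural cells. It reports *Rgs5* as lower and *Kcnj8* as not significantly changed. The part of mural cells or of arterial ECs in the *Igfbp7* result was not tested.

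*Igfbp4*, whose protein is cleaved by pappalysins to release IGF, was abundant in both genotypes, at 1140, 1139 and 751 CPM in ControlΔEC and 1228, 1273 and 1051 CPM in Wt1KOΔEC. The genotypes overlapped, and the log2 fold change was 0.23 ± 0.19 with a 95% interval from -0.19 to 0.65 (edgeR, adjusted p = 0.696). *Igfbp4* lies on chromosome 11 at 98932064 to 98945218 on the plus strand. *Igfbp6*, a carrier that prefers IGF2, was the least abundant of the 10 genes and varied widely between libraries, with 0, 58 and 22 counts in ControlΔEC and 85, 4 and 8 counts in Wt1KOΔEC. The libraries of both genotypes overlapped and its log2 fold change of 0.43 ± 1.78 had an interval from -3.58 to 4.44 (edgeR, adjusted p = 0.963). It lies on chromosome 15 at 102052697 to 102057953 on the plus strand.

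The make-up of the binding protein mRNAs differed between genotypes in a way that does not depend on the scaling of libraries. *Igfbp3* made up 54.0, 54.7 and 50.1% of the summed CPM per kb of the 6 binding protein genes in ControlΔEC, and 65.6, 64.1 and 67.7% in Wt1KOΔEC. *Igfbp4* made up 38.8, 39.4 and 41.9% in ControlΔEC and 28.7, 29.8 and 26.8% in Wt1KOΔEC. The genotypes did not overlap for either share, and the difference was 12.9 percentage points for *Igfbp3* and -11.6 for *Igfbp4* (exact permutation p = 0.1 for each, the smallest possible). Since the shares sum to a whole, these are not separate results, and the *Igfbp4* level itself was not lower. The ratio of *Igfbp3* to *Igfbp4* counts, which needs no gene length, was 1.12, 1.12 and 0.963 in ControlΔEC and 1.84, 1.73 and 2.03 in Wt1KOΔEC. ControlΔEC replicate 3, low in both genes, was close to its replicates in this ratio.

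The share of *Igfbp7* was 3.02, 1.10 and 1.46% in ControlΔEC and 0.318, 0.291 and 0.238% in Wt1KOΔEC, without overlap. *Igfbp5* held 2.68, 3.73 and 5.65% in ControlΔEC and 4.49, 5.44 and 4.46% in Wt1KOΔEC, with overlap, although its level had no overlap. *Igfbp5* counts exceeded *Igfbp7* counts 15.6-, 20.6- and 20.7-fold in Wt1KOΔEC, whereas the ratios were 0.979, 3.73 and 4.26 in ControlΔEC. As *Igfbp5* was higher and *Igfbp7* lower without overlap, this ratio had to separate the genotypes and is not a further result.

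**Figure D3:**
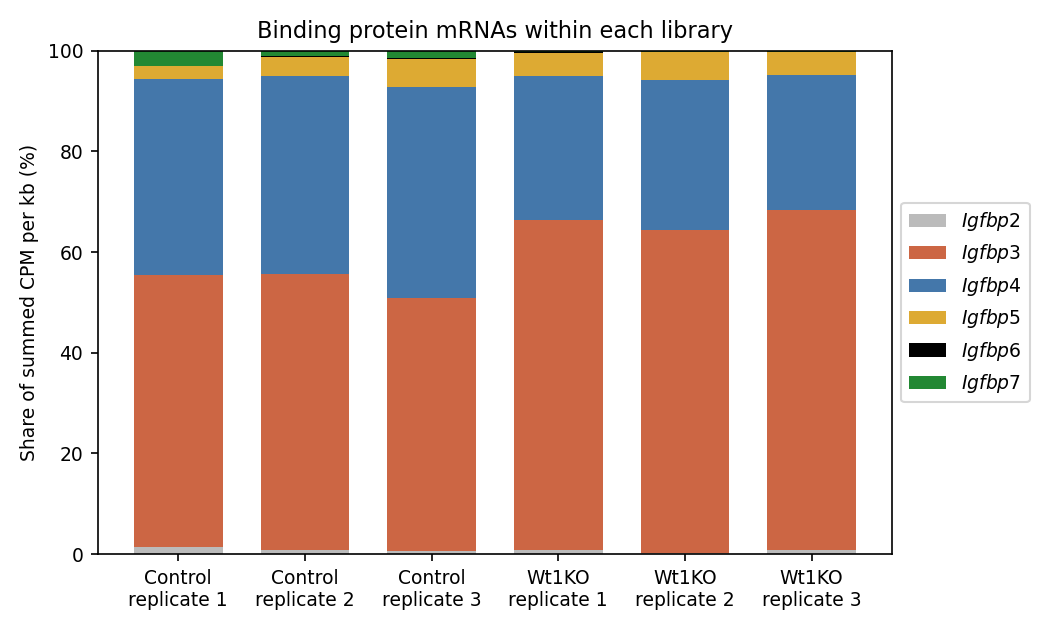
Share (%) of each binding protein gene in the summed CPM per kb of the 6 genes, with a stacked bar per library. *Igfbp3* takes 50.1 to 54.7% in ControlΔEC (Control) and 64.1 to 67.7% in Wt1KOΔEC (Wt1KO), *Igfbp4* is smaller in Wt1KOΔEC, and *Igfbp7* is visible in the ControlΔEC bars.

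The summed level of the binding proteins was 574 ± 146 CPM per kb in ControlΔEC and 940 ± 46.8 CPM per kb in Wt1KOΔEC (SD, n = 3), without overlap. *Igfbp3* alone was at 306 ± 89.4 and 618 ± 17.8 CPM per kb, while *Igfbp2*, *Igfbp4* and *Igfbp6* overlapped. The sum is therefore not a result separate from that of *Igfbp3*. The ratio of the binding protein sum to that of the ligands was 1.61 ± 0.30 in ControlΔEC and 1.69 ± 0.20 in Wt1KOΔEC, with overlap (exact permutation p = 0.7). Receptor mRNA summed to 32.0 ± 0.53 and 35.6 ± 4.85 CPM per kb, also with overlap. Together the 10 genes took 0.508 ± 0.0803% of all counts in ControlΔEC and 0.713 ± 0.0470% in Wt1KOΔEC. This share restates in part the levels of *Igf2* and *Igfbp3*, which had the highest mean CPM of the 10 genes.

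The rest of the IGF pathway was described with 42 further genes, of which 36 passed the filter. *Pappa2* passed through the Wt1KOΔEC libraries alone and is left out of the counts that follow. Of the other 35 genes, 17 were higher and 18 lower in Wt1KOΔEC with a median log2 fold change of -0.01, beside -0.02 over the 15547 genes tested that did not pass through one genotype alone. With edgeR 0 of the 35 were DEGs, beside 0.0736% of the 16296 genes tested. An unadjusted edgeR p under 0.05 was found for 5 of the 35, beside 1834 of the 15547. DESeq2 called *H19* higher and *Foxo1* lower, and called 3.68% of the 16296 genes. The libraries did not overlap for 8 genes, of which *Stc1*, *Stc2*, *H19* and *Grb10* were higher and *Crim1*, *Pik3r2*, *Foxo1* and *Foxo3* lower. That is 22.9% of the 35 genes, beside 18.7% of the 15547.

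The list of proteases that cleave binding proteins and of the inhibitors of these proteases held 6 genes, and 0 of them were DEGs with edgeR or DESeq2. *Stc1*, which encodes a stanniocalcin that inhibits the pappalysins, was at 138, 142 and 138 CPM in ControlΔEC and 185, 200 and 202 CPM in Wt1KOΔEC. The replicates were tight, and the log2 fold change of 0.49 ± 0.14 was under the fold limit (edgeR, adjusted p = 0.22; DESeq2, adjusted p = 0.0129). *Stc2*, of the same family, was at 1.03, 2.43 and 1.35 CPM in ControlΔEC and 3.30, 3.88 and 4.75 CPM in Wt1KOΔEC (edgeR, adjusted p = 0.452). The pappalysin gene *Pappa2* had 0 counts in the 3 ControlΔEC libraries and 20, 29 and 19 counts in the Wt1KOΔEC libraries. Its Wt1KOΔEC mean of 0.693 CPM was 8.96 times the mean ControlΔEC floor of 3 counts per library. That floor allows for counting error alone, so this is not a measured fold change. As *Pappa2* passed the filter through one genotype alone, no test is given for it. *Pappa*, which encodes the pappalysin that cleaves IGFBP4, was at 0 to 0.983 CPM in ControlΔEC and 0 to 1.55 CPM in Wt1KOΔEC, with overlap. The protease genes *Adam12* and *Htra1* overlapped as well. *Adam12* was at 29.0, 18.5 and 11.6 CPM in ControlΔEC and 14.4, 7.78 and 10.3 CPM in Wt1KOΔEC, with a log2 fold change of -0.87 ± 0.38 (edgeR, adjusted p = 0.383), and *Htra1* had a log2 fold change of 0.33 ± 0.62 (edgeR, adjusted p = 0.898).

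In the PI3K and AKT arm downstream of the receptor, 12 of 12 genes were tested, and 3 were higher and 9 lower with a median log2 fold change of -0.38. Over all genes tested, 8474 of 16296 were lower, with a median of -0.03. Of the 12 genes, 1 (*Foxo1*) had an unadjusted edgeR p under 0.05. *Foxo1*, a transcription factor that AKT inhibits, was at 69.5, 86.9 and 45.2 CPM in ControlΔEC and 38.0, 37.1 and 33.6 CPM in Wt1KOΔEC, without overlap. Its log2 fold change was -0.89 ± 0.24 (edgeR, adjusted p = 0.209; DESeq2, adjusted p = 0.0266), and the study names it among its changed genes, so its direction is not independent evidence. *Akt1* and *Pdpk1*, kinases of the arm, overlapped between genotypes, with log2 fold changes of 0.08 ± 0.21 and -0.01 ± 0.20. Among the adaptors, *Grb10*, an imprinted inhibitor of IGF and insulin signalling, was at 540, 483 and 538 CPM in ControlΔEC and 567, 553 and 563 CPM in Wt1KOΔEC. The gap between the genotypes was small, with a log2 fold change of 0.11 ± 0.13 (edgeR, adjusted p = 0.822). The insulin genes *Ins1* and *Ins2* and the acid-labile subunit gene *Igfals* had 0 counts in all 6 libraries.

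**Figure D4:**
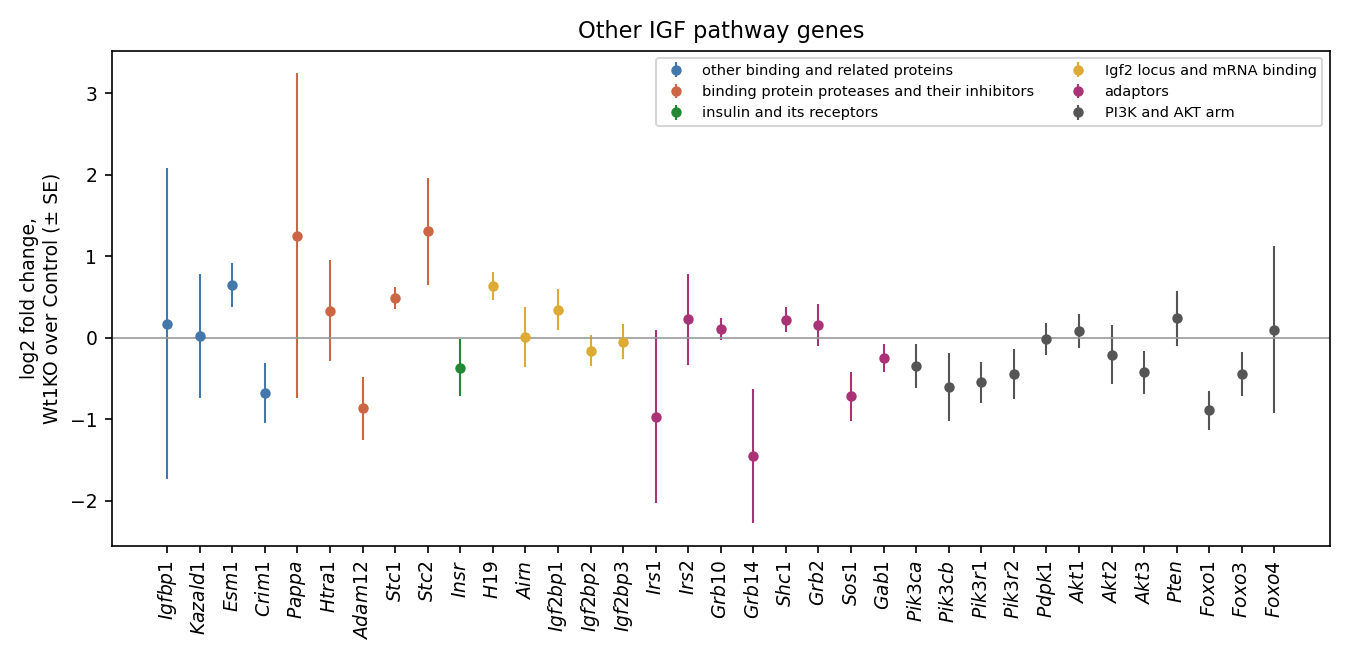
The log2 fold change (Wt1KOΔEC over ControlΔEC) with its SE for 35 further IGF pathway genes, coloured by group; *Pappa2*, which had 0 counts in ControlΔEC, is left out. In the PI3K and AKT arm 9 of 12 points lie below 0, beside 8474 of the 16296 genes tested. None of the genes shown was a DEG with edgeR.

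The genes with the patterns most like those of the members were taken by Pearson's r of log2 CPM over the 6 libraries, among genes with a mean of at least 10 CPM. For *Igfbp5* they were *Col4a5* (r = 0.994), *Tnfrsf21* (0.989) and *Clca3a1* (0.988). For *Igfbp3* they were *Galk1* (0.999), *Rps28* (0.996) and *Nosip* (0.992), and for *Igfbp7* they were *Gm12715* (0.992), *Etnk1* (0.992) and *Marchf6* (0.991). These values describe 6 points that fall into the genotypes and share their depth and *Rn18s* content, and were picked as the highest among all genes at that level.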

How the data were processed

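RNA-Seq of mGFP+ cells gave 3 libraries per genotype (SMART-seq2 and Nextera XT, 2 ng RNA). The authors deposited RSEM expected counts per gene, as whole numbers without normalization. Processing notes name STAR 2.7.8a, RSEM 1.3.0 and GRCm38, while the methods name GRCm39 with GENCODE vM27. Groups came from the labels.

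Genes reaching 10 counts in 2 or more libraries were compared with edgeR 4.0.16 (TMM, quasi-likelihood F test, Benjamini-Hochberg over 16296 genes, no block) in R 4.3.3. The study used DESeq2; here DESeq2 1.42.0, limma-voom (limma 3.58.1), other normalizations and filters, a replicate block, length and GC offsets, other call rules and leaving out each library were alternatives. SEs were derived from the fitted log2 fold change and its F statistic. Exact permutation tests (scipy 1.17.1) were two-sided, on log2(CPM + 0.1) for single genes and untransformed for shares and ratios. Steps were tested on simulated data. Lengths and positions are from GENCODE vM39. Genes named are the members, a pathway list, marker lists, gene neighbours and the 3 most alike genes for 3 members. The members and lists were chosen with earlier results of these data known. Library identifiers run consecutively within genotype, in a separate series for each genotype, so a batch that follows genotype cannot be told apart from it.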

Additional observations from a re-analysis of the deposited data

How the results depend on the processing

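*Igf2*, *Igf2r*, *Igfbp3*, *Igfbp4*, *Igfbp5* and *Igfbp7* kept their direction under all 18 alternatives run. The number of IGF family genes called was 0 with edgeR as reported and 4 with DESeq2. It was 3 without a filter (*Igfbp3*, *Igfbp5* and *Igfbp7*) and 2 with at least 10 counts in every library (*Igfbp5* and *Igfbp7*). With an unadjusted p under 0.05 and the same fold limit it was 4. Pathway genes called numbered 2 with DESeq2 and 1 without a filter. DEGs over all genes numbered 12 with edgeR, 599 with DESeq2, 296 without a filter and 113 with at least 10 counts in every library. They numbered 5 with the replicate block, 6 with length and GC offsets and 6 with both together. With an unadjusted p under 0.05 and the same fold limit they numbered 1652. Without a library in turn they ranged from 2 (without Wt1KOΔEC replicate 3) to 37 (without ControlΔEC replicate 3), and no IGF family gene was called. Correlations of deviations were 0.0566, 0.00448 and 0.0201 for replicates of the same number, and -0.0429 to 0.025 for the other pairs. The study bred both genotypes from the same litter, but which libraries share a litter is not stated. These small values cannot settle whether the samples are paired. The block called 0 of the 10 genes, and turned *Igfbp6* to -0.47, or -0.51 with the offsets too. Scaling by library size only moved the median of all genes to -0.18 and *Igf1* to -0.011. With a library left out, log2 fold changes ranged from -0.389 to 0.067 for *Igf1r* (higher without ControlΔEC replicate 3), from -0.46 to 0.38 for *Igfbp2* (higher without ControlΔEC replicate 1 or Wt1KOΔEC replicate 2) and from -1.58 to 1.20 for *Igfbp6*. They ranged from -2.35 to -1.30 for *Igfbp7*, 0.79 to 1.14 for *Igfbp3*, 0.93 to 1.15 for *Igfbp5* and 0.53 to 0.79 for *Igf2*. In the order of levels, 7 genes changed rank with the longest transcript as length and 8 with no length. The causes of these differences were not tested. Low counts and the spread between libraries limit what can be said of *Igfbp6*, and depth that of *Pappa2*.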
